A study of Mus musculus with 5 samples.

Results

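Binding of the transcription factor PU.1 was examined at 8 genes that carry signals from leukocyte receptors to the actin skeleton: Vav1, Vav2, Vav3, Was, Wipf1, Coro1a, Lcp1 and Fermt3. They were chosen by name, 8 of 21887 protein-coding genes in the annotation used. Each locus was the gene span with 10 kb on each side, and its signal was read from the 10 bp windows that lie in it. The 8 loci held 512 tested windows of 286435 in all. Joining windows that lie no more than 100 bp apart gave 91 sites, out of 60527 such regions in the genome.

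The libraries came from mouse dendritic cells of a strain labelled C56BL/6, grown in Flt3L culture. Chromatin was precipitated with the T-20 antibody to PU.1 from conventional dendritic cells (cDCs, n = 2 biological replicates) and from plasmacytoid dendritic cells (pDCs, n = 2). A single input library of unprecipitated chromatin came from cDCs and served as the background of both cell types. No allele or treatment other than the culture itself is given in the labels, and age is not given there.

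PU.1, an ETS-family factor encoded by Spi1, binds purine-rich DNA around a GGAA core and is required for the development of dendritic cells. Vav proteins are exchange factors that load Rac with GTP after tyrosine phosphorylation by receptor-linked kinases, and Vav1 is the family member largely restricted to blood cells. WASp, the product of Was, switches on the Arp2/3 complex to branch actin filaments, and WIP, from Wipf1, holds WASp stable. Coronin-1A (Coro1a) binds filaments and Arp2/3, L-plastin (Lcp1) bundles filaments, and kindlin-3 (Fermt3) binds integrin tails and is needed for integrin activation in blood cells. cDCs use this machinery to take up antigen, to migrate and to hold T cells, and pDCs are known for making type I interferon.

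Of the 14 start sites that RefSeq (GRCm38.p6) lists for the 8 genes, 6 had a tested window between 250 bases before and 50 bases after the start. The 3 with the highest signal in that stretch are shown because PU.1 signal lay directly on them, at Vav1, at Was and at the third listed start of Wipf1. Each sequence runs 5′ to 3′ on the strand of the gene, from position -200 to the first 30 transcribed bases, with the start site counted as 0. Capitals mark the ETS core GGAA, or TTCC where the core is on the other strand, and in Vav1 also the 8-letter PU.1 motif GAGGAAGT.
Vav1 start, plus strand of chromosome 17: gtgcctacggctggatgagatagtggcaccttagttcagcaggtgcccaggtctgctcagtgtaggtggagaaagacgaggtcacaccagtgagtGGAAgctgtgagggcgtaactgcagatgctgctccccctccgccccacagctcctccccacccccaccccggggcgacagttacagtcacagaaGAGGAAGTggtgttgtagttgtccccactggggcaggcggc
Was start, minus strand of chromosome X: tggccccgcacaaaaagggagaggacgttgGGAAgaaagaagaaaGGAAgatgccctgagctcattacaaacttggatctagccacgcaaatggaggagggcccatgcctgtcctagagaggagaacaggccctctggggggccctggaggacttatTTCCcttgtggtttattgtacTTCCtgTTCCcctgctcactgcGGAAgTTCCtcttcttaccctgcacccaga
Wipf1 start 3, minus strand of chromosome 2: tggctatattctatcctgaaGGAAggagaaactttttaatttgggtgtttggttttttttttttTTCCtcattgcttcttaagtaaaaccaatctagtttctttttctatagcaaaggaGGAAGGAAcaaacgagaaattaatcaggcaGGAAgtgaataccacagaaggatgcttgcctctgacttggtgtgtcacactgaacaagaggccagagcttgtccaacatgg

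The motif GAGGAAGT, searched on both strands, was found in 1 of the 14 member promoters, that of Vav1. It began at position -11 and covered chr17:57279089-57279096 in GRCm38.p6. The 10 bp window with the highest signal in that promoter, chr17:57279101-57279110, lay just after it. Over all 32851 listed promoters of the same length 3.20% held GAGGAAGT. It was present in 8.11% of the 5737 promoters with a tested window and in 2.16% of the 27114 without. The bare core GGAA, which GAGGAAGT contains, was in all 14 member promoters and in 96.0% of all promoters, so its presence sets no gene apart. In the Was promoter a reverse-strand core at chrX:8090504-8090507 lay inside the window of highest signal, chrX:8090501-8090510. The composite letters GGAANNGAA, an ETS core followed by the IRF-type GAA, were in 2 member promoters, those of Wipf1 starts 2 and 3, and in 8.24% of all. At Wipf1 start 3 they covered chr2:73453932-73453940, near the window of highest signal at chr2:73453951-73453960. The AP-1 letters TGANTCA were in 1 member promoter, Vav3 start 3 (7.81% of all), and the RUNX letters TGTGGT in 3, those of Was, Wipf1 start 3 and Fermt3 (16.8% of all). These are matches of letters, not measured sites.

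**Figure D1:**
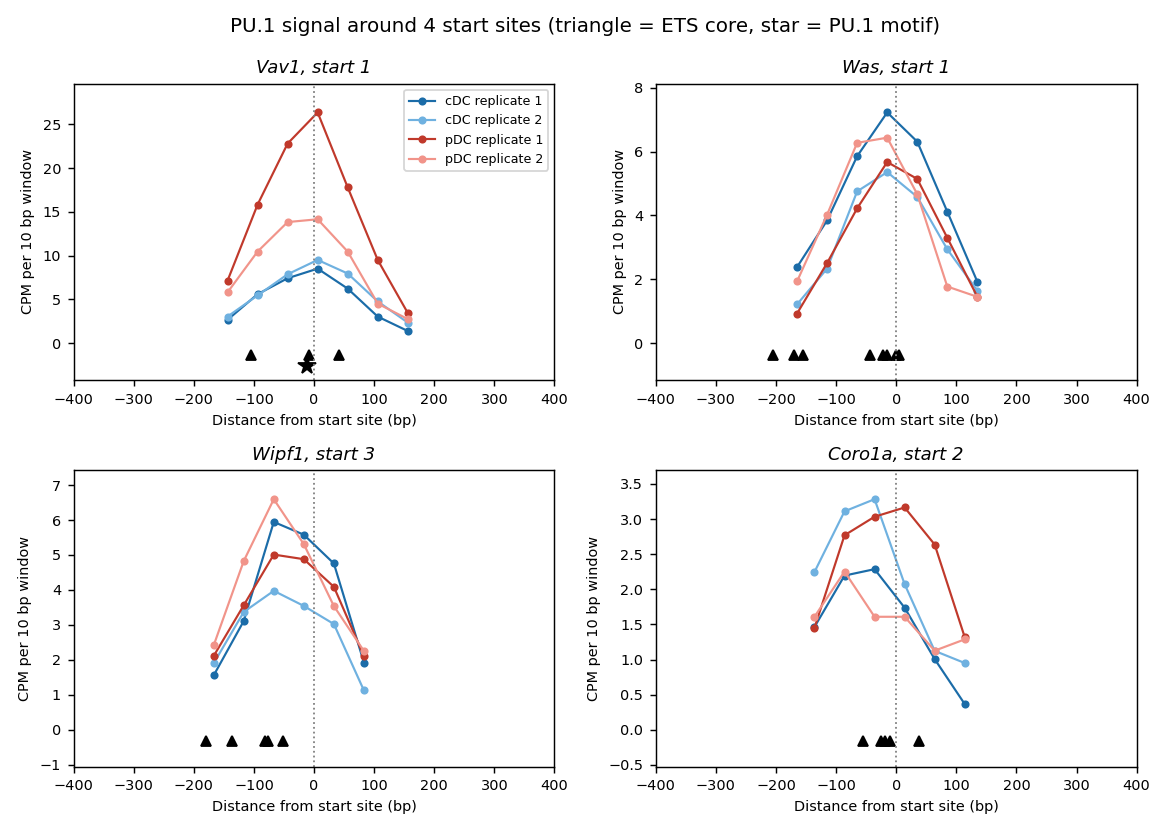
PU.1 signal per 10 bp window (vertical axis, CPM, counts scaled to library size) against distance from a start site (horizontal axis, bp) for the 4 PU.1 libraries at the starts of Vav1, Was, Wipf1 (start 3) and Coro1a (start 2). Triangles mark GGAA on either strand and the star marks GAGGAAGT within 250 bases before to 50 after the start. At Vav1 both pDC libraries lie above both cDC libraries at the windows from -94 to 56 bp, and at 106 bp pDC replicate 2 is just below cDC replicate 2. At Was, Wipf1 and Coro1a the cell types overlap in their summed signal.

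PU.1 signal rose in pDCs at the start of Vav1. Counts are given below as CPM, counts scaled to the library size after adjustment by the TMM method. A site whose window p-values, combined by the Simes method, gave an adjusted p below 0.05 over all 60527 regions is called different. By this rule 14.5% of all regions were called, 8.46% as higher in pDCs and 6.00% as higher in cDCs. The site over the Vav1 start, chr17:57278951-57279260, measured 34.8 and 40.9 CPM in cDCs, and 103 and 61.9 CPM in pDCs, in the order of replicates 1 and 2. Both pDC libraries were above both cDC libraries, and pDC replicate 1 stood well above pDC replicate 2. The summed site was 2.18-fold higher in pDCs. At its window with the smallest p, the log2 fold (pDC minus cDC, as everywhere below) was 1.27 ± 0.25 (SE, n = 2 per cell type, edgeR adjusted p = 0.00344). The call ended without cDC replicate 1 (log2 fold 1.22) and without cDC replicate 2 (1.31), though the fold hardly moved. In each fit without 1 library, here and below, the spread comes only from the cell type that keeps both replicates. The pDC replicates differed more from each other than the cDC replicates did. Such a call can thus end or hold through the spread of the pair that is left. The Vav1 call also ended against a minimum fold of 1.5. Scaling by the repeat windows, described with the locus results, ended it too (0.83, edgeR adjusted p = 0.806). Because the cells were measured in bulk, a smaller share of cells with PU.1 at a site and weaker binding in each cell cannot be told apart.

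The other 6 Vav1 sites were not called. The strongest of the locus by mean summed signal over the 4 libraries lay 6.06 kb after the start, at chr17:57284951-57285510. It measured 70.2 and 56.2 CPM in cDCs, and 69.5 and 66.0 CPM in pDCs. Its groups overlapped, with a log2 fold of 0.24 ± 0.24 at the best window. Strength, here and below, is summed signal, which grows with width, and this site is 560 bp wide against 310 bp at the start. The highest windows of the sites averaged 14.4 CPM here and 14.6 CPM at the start. As a share of the signal of the whole locus, the start site made up 21.7% and 25.1% in the cDC replicates and 40.8% and 33.7% in the pDC replicates. In both cDC libraries the site inside the gene was thus the stronger of the pair, in pDC replicate 1 the start was, and in pDC replicate 2 they were close.

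At Vav2, 5 sites inside the gene were called, 4 of them higher in pDCs and 1 lower. The most strongly changed site of the 91 by p-value was Vav2 site 3, at chr2:27297251-27297510, which is 130.3 kb after the start (sites are numbered along the chromosome within a locus). It measured 1.65 and 4.23 CPM in cDCs, and 35.1 and 21.7 CPM in pDCs. The signal was low in both cDC libraries and high in both pDC libraries. The summed site was 9.66-fold higher in pDCs, and the log2 fold at the best window was 3.53 ± 0.42 (edgeR adjusted p = 2.67e-05). In cDCs none of its windows was above the input, and in pDCs 5 of 6 were, where 35.4% and 31.3% of all windows were above it in cDCs and pDCs. Results against the input, here and below, rest on the totals over windows. With totals taken outside the repeat windows, member windows above the input fell from 229 to 22 in cDCs and from 180 to 28 in pDCs. The call held in all 4 fits that left out 1 library, with log2 folds from 3.05 to 4.26 over the 15 alternatives that gave a value.

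The strongest Vav2 site, site 5 at chr2:27311651-27312010, lay 115.8 kb after the start. It measured 82.7 and 90.3 CPM in cDCs, and 151 and 129 CPM in pDCs. All libraries carried a clear signal there, with both pDC libraries higher. The summed site was 1.61-fold higher in pDCs, and the log2 fold at the best window was 1.02 ± 0.24 (edgeR adjusted p = 0.0208). This call ended without cDC replicate 1 (0.94, edgeR adjusted p = 0.646), without cDC replicate 2 (1.098, edgeR adjusted p = 0.371) and without pDC replicate 1 (0.87, edgeR adjusted p = 0.0501). It also ended with library-size scaling (0.90, edgeR adjusted p = 0.0609), with scaling by the repeat windows (0.52, edgeR adjusted p near 1), against a minimum fold of 1.5 (edgeR adjusted p = 0.367) and by DESeq2 (1.02, DESeq2 adjusted p = 0.230).

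Site 2 of Vav2, 132.7 kb after the start, went the other way. It measured 4.39 and 4.92 CPM in cDCs, and 0.527 and 2.09 CPM in pDCs (edgeR adjusted p = 0.0231). This is a weak signal in every library, and its best window held 0 and 3 counts in the pDC replicates, so its fitted fold rests on the prior count and is not given. Higher in pDCs were 2 more sites, the weak site 13 and site 19, which lie 38.4 and 8.502 kb after the start. Site 13 measured 0.457 and 0.777 CPM in cDCs, and 4.62 and 4.02 CPM in pDCs (log2 fold 2.74 ± 0.58, edgeR adjusted p = 0.00221). Its best window held 3 and 4 counts in the cDC replicates and 19 and 11 in the pDC replicates, so that fold rests on few counts. Site 19 measured 9.51 and 11.7 CPM in cDCs, and 31.5 and 18.5 CPM in pDCs (1.33 ± 0.36, edgeR adjusted p = 0.0342). In both, the pDC libraries lay above the cDC libraries. No window of sites 2 and 13 was above the input in either cell type. The calls of sites 2 and 19 ended in each of the fits without cDC replicate 1, without cDC replicate 2 and without pDC replicate 1. Both also ended against a minimum fold of 1.5. That of site 19 ended as well with library-size scaling, with scaling by the repeat windows and with window p-values combined by Bonferroni. The call of site 13 ended without cDC replicate 1. By DESeq2 none of sites 2, 13 and 19 passed. The site nearest the Vav2 start, 0.452 kb after it, measured 20.0 and 26.9 CPM in cDCs, and 42.9 and 32.0 CPM in pDCs. Its groups did not overlap, but it was not called (log2 fold 0.83 ± 0.27, edgeR adjusted p = 0.112).

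At Vav3, PU.1 signal fell in pDCs at 3 sites within the gene. Of its 18 sites, 17 had a log2 fold below 0, where the median over all regions was 0.12. Only 3 of these 17 were called, and signs near 0 rest on the scaling. Site 8, at chr3:109425551-109425810 and 85.0 kb after the first start, measured 14.5 and 11.9 CPM in cDCs, and 2.51 and 2.41 CPM in pDCs. Both pDC libraries were low and close to each other, and the summed site was 5.36-fold higher in cDCs (edgeR adjusted p = 0.00201). Its best window held 24 counts in each cDC replicate and 0 and 1 in the pDC replicates, so the fitted fold is not given. No window of site 8 was above the input in either cell type, and its 34 input counts, equal to those of site 2, were the most of any Vav3 site.

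Site 3 of Vav3, at chr3:109352051-109352360 and 11.5 kb after the first start, measured 20.1 and 22.7 CPM in cDCs, and 5.01 and 7.72 CPM in pDCs. The log2 fold was -2.13 ± 0.41 (edgeR adjusted p = 0.00366). Site 6, at chr3:109392151-109392360, measured 16.4 and 14.4 CPM in cDCs, and 3.69 and 4.50 CPM in pDCs (-2.28 ± 0.46, edgeR adjusted p = 0.00269). At both, the cDC libraries lay more than 2-fold above the pDC libraries, and in cDCs 3 and 2 windows of sites 3 and 6 were above the input against none in pDCs. The calls of sites 3 and 8 held in all 4 fits that left out 1 library, and that of site 6 ended without cDC replicate 1 (-1.997, edgeR adjusted p = 0.0594). By DESeq2 none of the 3 passed (DESeq2 adjusted p between 0.0801 and 0.111).

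The strongest Vav3 sites were not called. Site 1, 5.03 kb before the first start at chr3:109335451-109335860, had the highest mean signal of all 91 sites. It measured 156 and 127 CPM in cDCs, and 119 and 116 CPM in pDCs. The cDC libraries were the higher ones by little, and the log2 fold did not pass (-0.67 ± 0.27 at the best window). Site 2, about 1 kb after the first start, measured 79.6 and 86.5 CPM in cDCs, and 72.3 and 84.8 CPM in pDCs, and its groups overlapped. Site 1 made up 30.2% and 24.9% of the locus in cDCs, and 35.9% and 30.3% in pDCs.

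**Figure D2:**
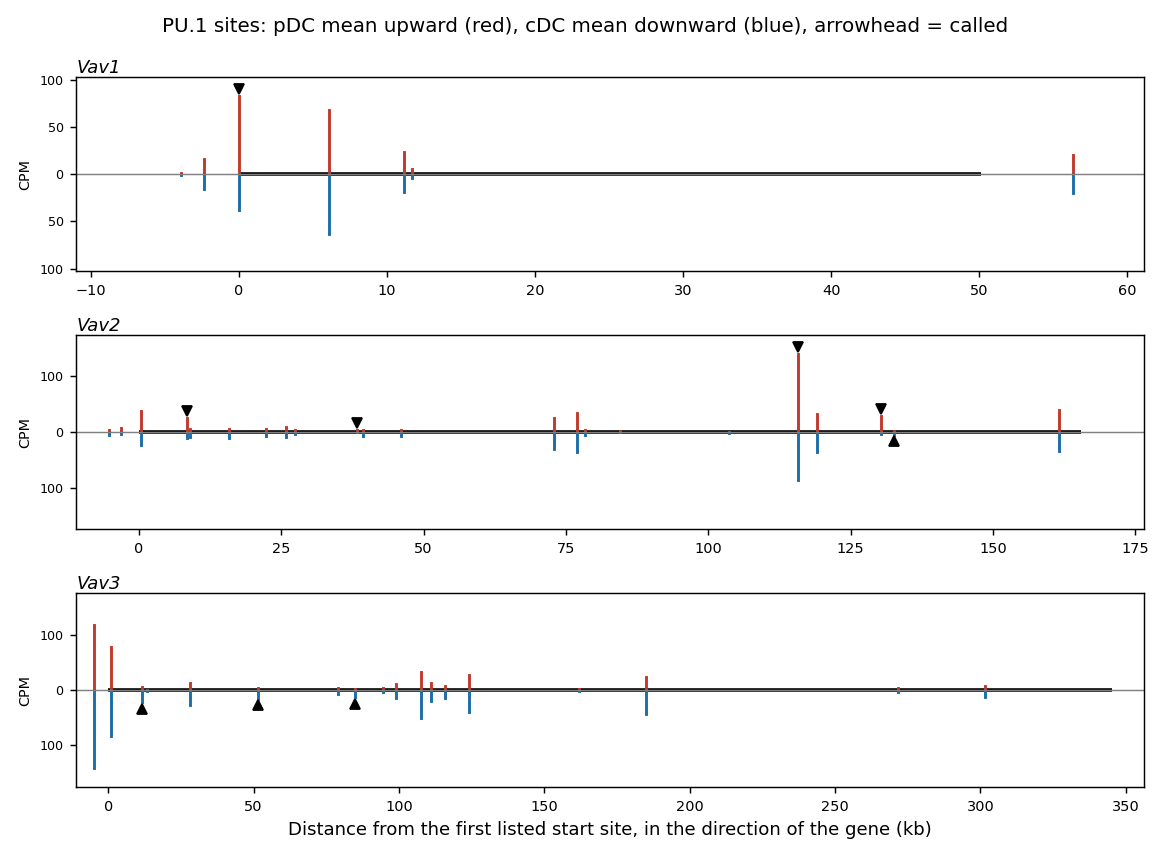
Summed PU.1 signal of each site (vertical axis, CPM; pDC mean upward in red, cDC mean downward in blue) against its distance from the first listed start (horizontal axis, kb in the direction of the gene) at Vav1, Vav2 and Vav3. The thick line is the gene span and arrowheads mark called sites, which point at pDC-high sites from above and at cDC-high sites from below. Called sites are at the start of Vav1, at 5 places within Vav2 and at 3 within Vav3.

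At Was, PU.1 signal lay almost wholly on the start site and was not called different. The start site, chrX:8090351-8090660, measured 31.6 and 22.8 CPM in cDCs, and 23.2 and 26.5 CPM in pDCs. The groups overlapped, and the log2 fold at the best window was -0.44 ± 0.37. It made up between 80.5% and 87.8% of the summed signal of the 4 Was sites in the 4 libraries. A weak site 19.04 kb after the start, within the span of the neighbouring gene Suv39h1, was called higher in cDCs. It measured 2.84 and 3.20 CPM in cDCs, and 0.791 and 0.483 CPM in pDCs (edgeR adjusted p = 0.0297). Its best window held 16 and 19 counts in cDCs and 3 and 1 in pDCs. That window lies just past the 10 kb flank, so it counts toward the site but not toward the Was locus sum. The call ended without cDC replicate 1, without cDC replicate 2 and without pDC replicate 2 (edgeR adjusted p = 0.322, 0.449 and 0.0623).

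At Wipf1, 2 of 13 sites were called, in opposite directions. Site 1, at chr2:73427051-73427310, lies past the end of the gene, 102.3 kb after the first start, in no listed gene span. It measured 26.6 and 23.0 CPM in cDCs, and 1.98 and 8.53 CPM in pDCs. Both cDC libraries were high, and the pDC libraries were low but differed from each other. The summed site was 4.72-fold higher in cDCs, and the log2 fold was -2.34 ± 0.41 (edgeR adjusted p = 0.000855). In cDCs 5 of its 6 windows were above the input, and in pDCs none. The call held under all 16 alternatives that gave a value, with log2 folds between -3.56 and -1.60.

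Site 3 of Wipf1, 3.13 kb after the third listed start, measured 0.823 and 0.691 CPM in cDCs, and 4.09 and 3.38 CPM in pDCs. It was called higher in pDCs (2.25 ± 0.57, edgeR adjusted p = 0.0107) at a low level in every library, with no window above the input in either cell type. Its best window held 4 and 5 counts in the cDC replicates and 16 and 11 in the pDC replicates, so the fold rests on few counts. That call ended without cDC replicate 1, without cDC replicate 2 and without pDC replicate 1 (edgeR adjusted p = 0.0928, 0.104 and 0.162). The site over start 3, shown above with its composite ETS and IRF letters, measured 22.9 and 16.9 CPM in cDCs, and 21.8 and 24.9 CPM in pDCs. Its groups overlapped, and it was not called. The strongest Wipf1 site, 0.753 kb before start 2 at chr2:73486051-73486610, measured 48.5 and 48.1 CPM in cDCs, and 65.3 and 52.6 CPM in pDCs. The pDC libraries were higher there, but the site was not called (0.50 ± 0.33).

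At Coro1a, 2 weak sites before the gene were called higher in pDCs. All 6 sites had a log2 fold above 0, the lowest 0.04, where the median over all regions was 0.12. Site 5, 2.94 kb before the first start, measured 1.37 and 0.691 CPM in cDCs, and 4.09 and 2.73 CPM in pDCs (2.07 ± 0.60, edgeR adjusted p = 0.0324). Site 6, 5.64 kb before it, measured 5.49 and 4.84 CPM in cDCs, and 14.0 and 10.6 CPM in pDCs (1.38 ± 0.40, edgeR adjusted p = 0.0480). At both sites the pDC libraries lay above the cDC libraries. No window of site 5 was above the input in either cell type. The best window of site 5 held 6 and 3 counts in the cDC replicates and 15 and 9 in the pDC replicates, so its fold rests on few counts. Both calls ended without cDC replicate 1, without cDC replicate 2 and without pDC replicate 1. They also ended with scaling by the repeat windows, by DESeq2 and against a minimum fold of 1.5. That of site 6 ended as well with library-size scaling, with totals taken outside the repeat windows and with window p-values combined by Bonferroni.

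The main Coro1a signal lay elsewhere. Site 2, inside the gene 2.26 kb after the first start, measured 56.9 and 56.2 CPM in cDCs, and 91.4 and 80.3 CPM in pDCs. The groups were apart by 1.52-fold on the summed site, and the site was not called (0.81 ± 0.24, edgeR adjusted p = 0.0855). The strongest site of the locus, chr7:126695701-126696110, lies within the spans of Bola2 and Slx1b past the end of Coro1a. It measured 81.5 and 98.7 CPM in cDCs, and 116 and 102 CPM in pDCs, and was not called. It made up between 48.2% and 56.7% of the locus signal, so close to an equal share of what is summed for Coro1a lies in neighbouring genes. At start 2, in the promoter stretch plotted with the other starts, 4 windows summed to between 7.08 and 10.7 CPM in the 4 libraries with no order between the cell types.

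At Lcp1, 2 of 17 sites were called, both higher in cDCs. Site 15, at chr14:75186851-75187110 and 55.8 kb after the first start, measured 26.7 and 30.1 CPM in cDCs, and 4.62 and 10.1 CPM in pDCs. Both cDC libraries were far above both pDC libraries. The summed site was 3.85-fold higher in cDCs (-2.08 ± 0.37, edgeR adjusted p = 0.00126), and 4 of its windows were above the input in cDCs against none in pDCs. The call held under all 16 alternatives that gave a value. Site 6, 33.4 kb after the first start, measured 7.41 and 11.7 CPM in cDCs, and 1.45 and 5.47 CPM in pDCs (edgeR adjusted p = 0.0196), and its best window held 2 and 4 counts in pDCs. None of its windows was above the input in either cell type. Its call ended without cDC replicate 2 and without pDC replicate 1 (edgeR adjusted p = 0.427 and 0.123).

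The strongest Lcp1 site did not follow site 15. Site 11, 760 bp wide at chr14:75179251-75180010, measured 125 and 113 CPM in cDCs, and 155 and 119 CPM in pDCs. Its groups overlapped, and it was not called (0.32 ± 0.23). The windows of site 11 measured 18.3 to 27.4 CPM at chr14:75179401-75179410 and 8.12 to 10.9 CPM at chr14:75179851-75179860 in the 4 libraries. Between them, at chr14:75179601-75179610, the signal fell to 1.61 to 1.98 CPM, so the sum joins separate peaks. Sites 11 and 15 are inside the same gene, and site 15 differed from the rest of the locus by a test of that difference, given with the other such tests.

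At Fermt3, no site was called, and the smallest edgeR adjusted p of its 4 sites was 0.775, at its main site. That site, 960 bp wide at chr19:7017651-7018610 and 1.56 kb after the start, measured 99.1 and 78.4 CPM in cDCs, and 102 and 76.9 CPM in pDCs. The cell types overlapped fully, with a summed ratio of pDC to cDC of 1.01, and it held between 82.3% and 86.0% of the locus signal. Replicate 1 was above replicate 2 in both cell types.

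**Figure D3:**
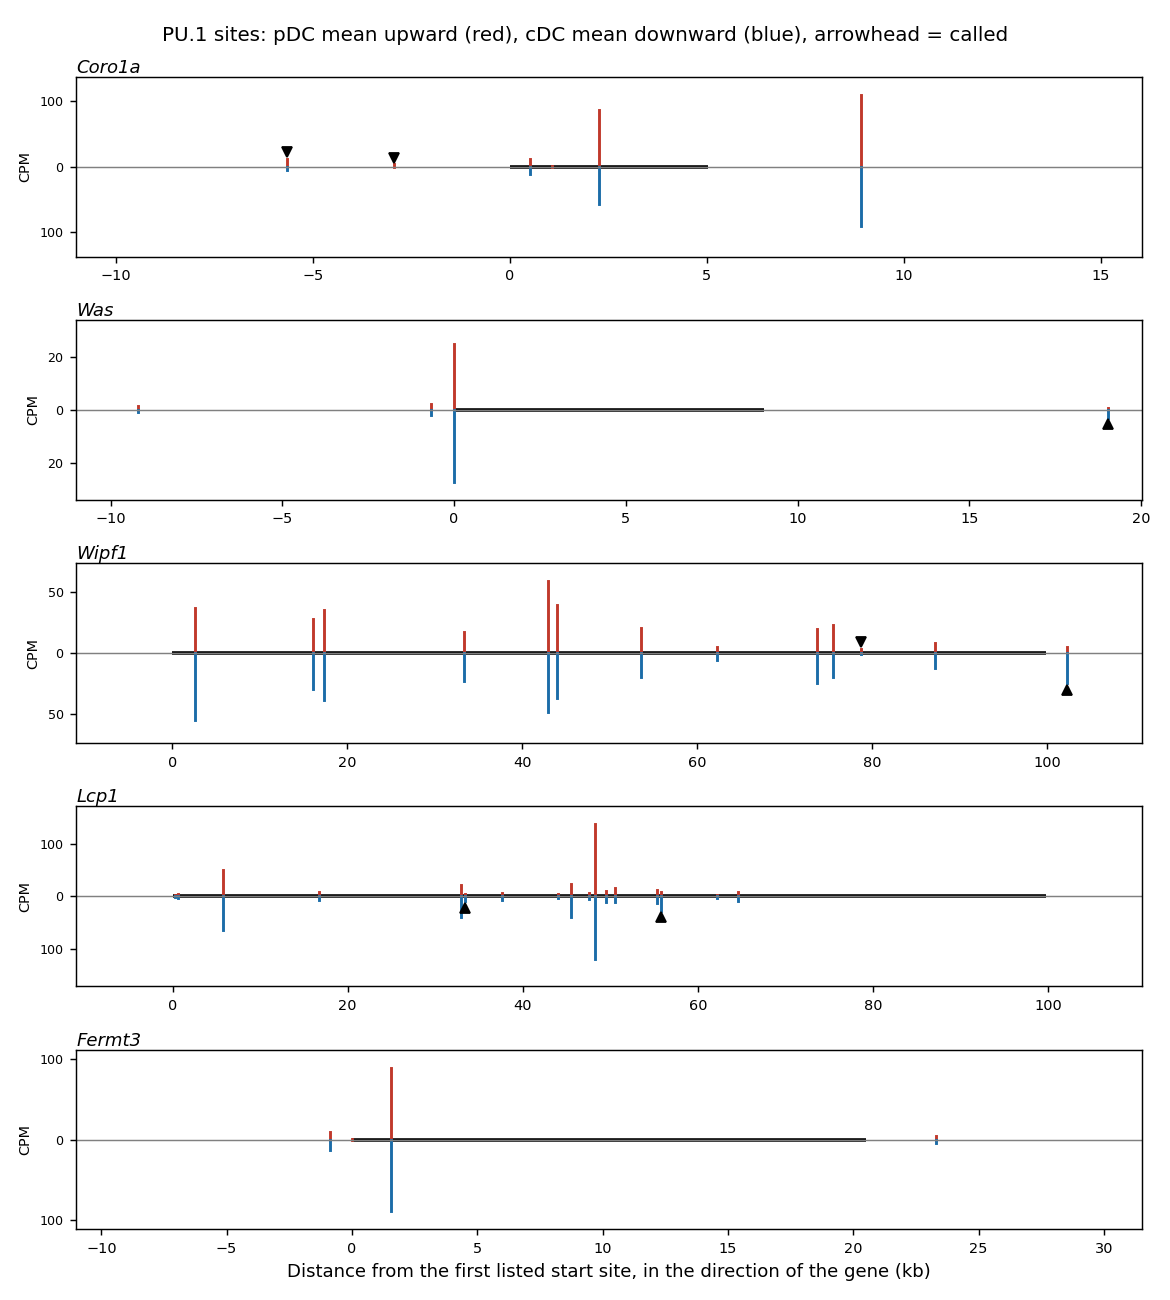
Summed PU.1 signal of each site (vertical axis, CPM; pDC mean upward in red, cDC mean downward in blue) against its distance from the first listed start (horizontal axis, kb in the direction of the gene) at Coro1a, Was, Wipf1, Lcp1 and Fermt3. The thick line is the gene span and arrowheads mark called sites. The tallest lines, such as the Fermt3 site 1.56 kb after the start and Lcp1 site 11, carry no arrowhead.

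Of the 91 sites together, 16 were called, which is 17.6% against 14.5% of all regions. There were 8 higher in pDCs (8.79% against 8.46% of all regions) and 8 higher in cDCs (8.79% against 6.00%). The shares of the members are near the background. The split moved with the scaling, to 5 and 10 (pDC and cDC) with library-size scaling and to 2 and 8 with scaling by the repeat windows. Called were 9 of the 43 member sites with a mean summed signal below 10 CPM (20.9% against 11.7% of all regions in that range), 5 of 37 between 10 and 50 CPM (13.5% against 19.1%) and 2 of 11 of at least 50 CPM (18.2% against 13.2%). The 2 strong ones were the start site of Vav1 and site 5 of Vav2. No window was above the input in either cell type at 6 of the 16 called sites, namely Vav2 sites 2 and 13, Vav3 site 8, Coro1a site 5, Wipf1 site 3 and Lcp1 site 6. The median log2 fold was -0.29 over the 91 sites and 0.12 over all regions. In the 4 fits that each left out 1 library, 5 of the 16 calls held every time: Vav2 site 3, Vav3 sites 3 and 8, Wipf1 site 1 and Lcp1 site 15. By DESeq2 4 of the 16 passed: the Vav1 start site (DESeq2 adjusted p = 0.0484), Vav2 site 3 (3.49e-05), Wipf1 site 1 (0.0249) and Lcp1 site 15 (0.0350). The other 12 did not, with DESeq2 adjusted p between 0.0722 and 0.466. Was site 1 and Lcp1 site 6 also lost their calls against a minimum fold of 1.5, and Wipf1 site 3 with scaling by the repeat windows. By single windows, 73 of 512 were called (14.3% against 14.4% of all windows), 32 higher in pDCs (6.25% against 7.99%) and 41 higher in cDCs (8.01% against 6.36%). That split became 22 to 64 with library-size scaling and 6 to 35 with scaling by the repeat windows. These counts moved with the library left out, to between 6 and 30 sites and between 23 and 131 windows, the highest of both without pDC replicate 2.

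**Figure D4:**
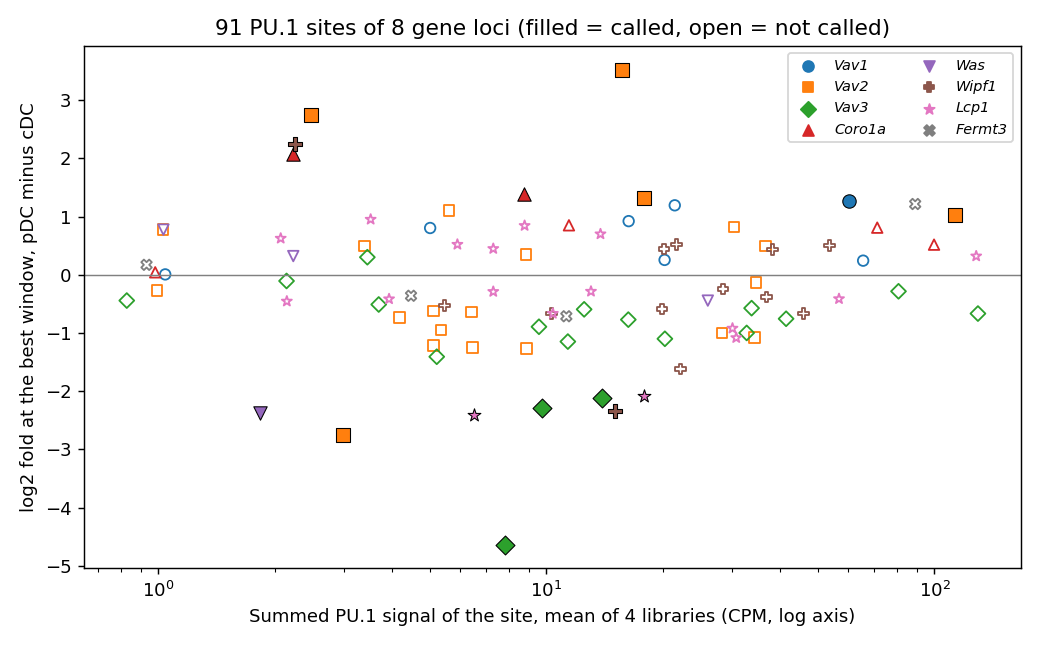
Log2 fold at the best window (vertical axis, pDC minus cDC) against the summed signal of the site, mean of the 4 PU.1 libraries (horizontal axis, CPM, log axis), for the 91 sites, 1 symbol per gene. Filled symbols are the 16 called sites and open ones the 75 others. Called are 9 of the 43 sites below 10 CPM, 5 of the 37 between 10 and 50 CPM and 2 of the 11 of at least 50 CPM.

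A difference between sites of the same gene needs no scaling between libraries. Each site was therefore also tested against the rest of its locus, a test chosen after seeing the data. Of the 91 member sites, 8 differed (8.79% against 8.02% of all tested pairs of a site and a locus). In that background a site lying in several loci counts for each of them. Higher in pDCs relative to their locus were Vav2 sites 3 and 13 and Wipf1 site 3, and lower were Vav2 site 2, Vav3 site 8, Was site 1, Wipf1 site 1 and Lcp1 site 15. Vav2 site 3 differed from its locus by 2.91 on the log2 scale (edgeR adjusted p = 1.41e-06), Wipf1 site 1 by -2.11 (edgeR adjusted p = 0.000271) and Lcp1 site 15 by -1.75 (edgeR adjusted p = 0.00166). Vav2 site 3 and Wipf1 site 1 kept this call in all 4 fits that left out 1 library, while Lcp1 site 15 lost it without cDC replicate 2 (-1.63, edgeR adjusted p = 0.102). The other 5 each lost it without cDC replicate 1 and without cDC replicate 2 (edgeR adjusted p between 0.137 and 0.391), Vav2 site 2 also without pDC replicate 1 (0.140) and Was site 1 also without pDC replicate 2 (0.0789). The start site of Vav1 did not pass (0.69, edgeR adjusted p = 0.100).

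Summed over each locus, Vav3 and Vav2 were called in opposite directions, and Vav1 was not called. Vav3 measured 516 and 510 CPM in cDCs, and 331 and 383 CPM in pDCs. Both cDC libraries were above both pDC libraries, and the log2 fold was -0.52 ± 0.11 (edgeR adjusted p = 0.00497). Vav2 measured 316 and 347 CPM in cDCs, and 437 and 411 CPM in pDCs, with the pDC libraries above (0.36 ± 0.11, edgeR adjusted p = 0.0351). The Vav2 call ended by DESeq2 (0.31, DESeq2 adjusted p = 0.0624) and with totals taken outside the repeat windows (0.30, edgeR adjusted p = 0.0550). Vav1 measured 160 and 163 CPM in cDCs, and 252 and 184 CPM in pDCs. Its pDC libraries were above too, but it was not called (0.43 ± 0.14, edgeR adjusted p = 0.0542). With TMM factors taken from the locus sums, a scaling chosen after seeing the data, it passed (0.39, edgeR adjusted p = 0.0489). It also passed where windows had to average 30 counts (0.53, edgeR adjusted p = 0.0184) or to be 2-fold over input (0.49, edgeR adjusted p = 0.0241). Of the fits that left out 1 library, only that without pDC replicate 2 passed (0.64), and its spread came from the cDC pair alone. Without pDC replicate 1 the fold was lower (0.19). Without cDC replicate 1 and without cDC replicate 2 the fold stayed near that of all 4 libraries (0.41 and 0.45). With flanks of 50 kb the fold was also lower (0.16, edgeR adjusted p = 0.335).

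Coro1a was the other locus called. It measured 155 and 174 CPM in cDCs, and 241 and 206 CPM in pDCs, with the pDC libraries above (0.44 ± 0.13, edgeR adjusted p = 0.0288). Of its tested windows, 79.3% are also counted for Bola2, Slx1b or Sult1a1, so the value is not that of Coro1a alone. It was called too over the gene span alone (0.53, edgeR adjusted p = 0.0357) and with each window given to its nearest gene (0.62, edgeR adjusted p = 0.0146), and the call ended with flanks of 50 kb (0.14, edgeR adjusted p = 0.388).

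The other 4 loci were not called. Wipf1 measured 340 and 335 CPM in cDCs, and 292 and 312 CPM in pDCs (-0.16, edgeR adjusted p = 0.351). Lcp1 measured 382 and 364 CPM in cDCs, and 323 and 324 CPM in pDCs (-0.20, edgeR adjusted p = 0.213). At both, the cDC libraries were the higher ones by a small margin. Of the 4 fits that left out 1 library, both passed only in that without pDC replicate 2, each with a log2 fold of -0.21. The spread in that fit came from the cDC pair alone. Was measured 36.4 and 26.7 CPM in cDCs, and 27.7 and 30.1 CPM in pDCs (-0.13, edgeR adjusted p = 0.777). Fermt3 measured 119 and 95.3 CPM in cDCs, and 120 and 89.4 CPM in pDCs (-0.03, edgeR adjusted p = 0.935), and all its windows are also counted for other genes nearby. At Was and Fermt3 the groups overlapped. Per kb of locus, signal was highest at Coro1a, with 6.58 CPM in cDCs and 8.94 CPM in pDCs, and lowest at Was in cDCs (1.09 CPM) and at Vav3 in pDCs (0.977 CPM).

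**Figure D5:**
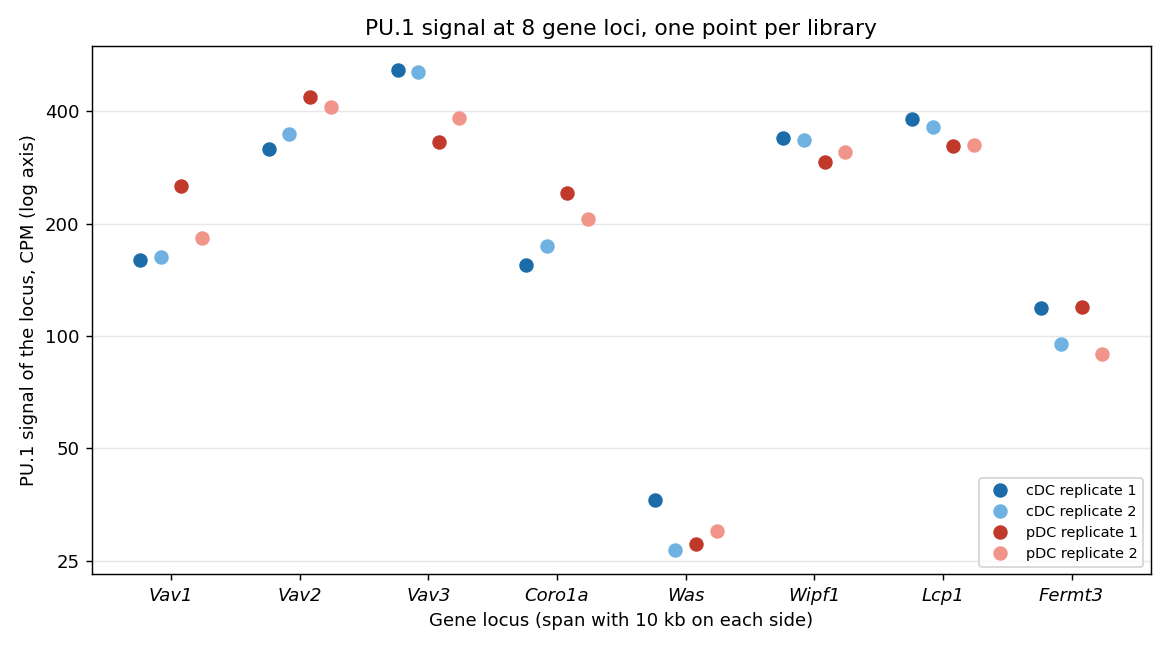
PU.1 signal summed over each locus (vertical axis, CPM, log axis) for the 8 genes (horizontal axis), 1 point per PU.1 library, with cDC replicates in blue and pDC replicates in red. The pDC points lie above the cDC points at Vav1, Vav2 and Coro1a and below them at Vav3, Wipf1 and Lcp1, and they overlap at Was and Fermt3.

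In all, 3 of 8 loci were called (37.5% against 16.5% of all 15001 loci), 2 higher in pDCs (9.54% of all loci) and 1 higher in cDCs (6.97% of all loci). The members were chosen by name with earlier results known, and 8 genes are too few to read a share from. None of the 3 calls held in all 4 fits that left out 1 library. The calls of Vav2, Vav3 and Coro1a each ended without cDC replicate 1 and without cDC replicate 2, where the spread came from the pDC pair alone. All 3 also ended against a minimum fold of 1.5. The median log2 fold was -0.08 over the members and 0.05 over all loci. An exact permutation test of 2 libraries against 2 cannot go below a two-sided p of 0.333, and each locus was tested in the fit across all loci.

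Every other scaling tried lowered the pDC level of loci at large, so the sign of a fold near 0 rests on the scaling. A set of 146 windows with at least 1000 input counts, called repeat windows, held between 9.15% and 18.0% of the counts of the PU.1 libraries, with the highest share in pDC replicate 2. Scaling by them moved the median log2 fold of all loci from 0.05 to -0.46. Vav1, Vav2 and Coro1a then had log2 folds of -0.03, -0.16 and -0.06, below 0 by that common shift and above the new median, and Vav3 had -1.08, below it. None of the 8 loci was called under that scaling. Scaling by library size moved the median to -0.08, and Vav2 (0.23, edgeR adjusted p = 0.231) and Coro1a (0.32, edgeR adjusted p = 0.151) were no longer called.

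A ratio of loci within a library needs no scaling. The counts of Vav1 to Vav3 stood at 0.310 and 0.319 in cDCs, and at 0.762 and 0.479 in pDCs, a mean ratio 1.97 times as high in pDCs. For Vav2 to Vav3 the ratios were 0.612 and 0.680 in cDCs, and 1.32 and 1.07 in pDCs, 1.85 times as high. Both pDC libraries lay above both cDC libraries in each case, where the exact permutation test gives its smallest p, 0.333. The ratio of Vav1 to Vav2 overlapped between the cell types, at 0.506 and 0.469 in cDCs, and 0.576 and 0.446 in pDCs. These ratios were not among the planned tests. A difference in such a ratio would mean unequal change at the loci, not which gene changed, and a permutation p of 0.333 does not establish it.

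Against the input, 229 of the 512 member windows were higher in cDCs (44.7% against 35.4% of all windows) and 180 in pDCs (35.2% against 31.3%), at an adjusted p below 0.05 and at least 2-fold. Sites with such a window numbered 53 in cDCs and 43 in pDCs. These counts rest on the totals over windows, of which the repeat windows made up 74.6% in the input. With totals taken outside the repeat windows, 22 windows in cDCs and 28 in pDCs passed. By gene, and with the totals over all windows alone, the gap was widest at Vav3, with 52 in cDCs and 24 in pDCs. Under that setting Vav1, Vav2 and Coro1a had 1 to 3 more in pDCs than in cDCs. The lone input came from cDCs and the cDC libraries had the larger totals, so the counts of the cell types are not like for like.

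The PU.1 libraries summed to between 6896416 and 11388554 counts over all windows, and the input to 2776490. Neighbouring windows share reads, so these totals are not sequencing depth, which is unknown, and the pDC libraries had the smaller totals. The labelled cell types were set beside PU.1 signal at marker loci, which is not expression. Of 8 pDC marker loci with tested windows, 4 were higher in pDCs and none in cDCs, including Siglech and Spib. Of 9 cDC marker loci 2, Itgae and H2-Ab1, were higher in cDCs, and no other passed. Of 8 B cell marker loci 4 were higher in pDCs, and their summed signal stood at 330 and 334 CPM in the cDC libraries, and at 577 and 476 CPM in the pDC libraries. All windows of Spib and 72.7% of those of Itgae are also counted for neighbouring genes. Klk1 of the pDC list had no tested window. The part of B cells in the pDC values above was not tested. Of the other marker loci, T and NK cell genes had 1 of 6 higher in pDCs, macrophage and neutrophil genes 2 of 8 higher in pDCs and 1 in cDCs, and erythroid and mast cell genes 1 of 5 higher in cDCs.

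Other genes of the same machinery were called about as often as loci at large, of which 16.5% were called. Their values are given with the TMM factors of the windows alone. Over all 15001 loci these gave 1431 calls toward pDCs and 1045 toward cDCs, library-size scaling 924 and 1491, and scaling by the repeat windows 30 and 75. Of 32 further haematopoietic actin regulators and related signalling genes, 3 rose in pDCs, 4 rose in cDCs and 25 did not pass, with a median log2 fold of 0.04. Rac2, the Rac GTPase of blood cells that Vav proteins load, measured 90.3 and 93.9 CPM in cDCs, and 166 and 122 CPM in pDCs (0.65 ± 0.16, edgeR adjusted p = 0.0120). Abi3, a relative of the Abi subunits of the WAVE complex, was also higher in pDCs (0.71 ± 0.18, edgeR adjusted p = 0.0136). Cotl1, which encodes coactosin-like 1, a filament binder, measured 166 and 164 CPM in cDCs, and 117 and 111 CPM in pDCs (-0.54 ± 0.13, edgeR adjusted p = 0.0109). Gmfg, whose product prunes Arp2/3 branches, was higher in cDCs too (-0.54 ± 0.14, edgeR adjusted p = 0.0161). All windows of Abi3 and of Gmfg are also counted for neighbouring genes.

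Of 19 paralogs of the members and of their partners with tested windows, 2 rose in pDCs, 2 rose in cDCs and 15 did not pass (median log2 fold 0.07). Wasf3, Pls3, Fermt1 and Fermt2 of that list had no tested window. Coro2b, a coronin, measured 59.8 and 58.3 CPM in cDCs, and 171 and 124 CPM in pDCs (1.32 ± 0.17, edgeR adjusted p = 0.000245). Pls1, a plastin related to Lcp1, measured 9.24 and 11.3 CPM in cDCs, and 45.1 and 35.5 CPM in pDCs (1.97 ± 0.26, edgeR adjusted p = 0.000346). At both, pDC libraries were more than 2-fold above cDC libraries. Wipf2, a paralog of Wipf1, measured 140 and 134 CPM in cDCs, and 62.1 and 75.6 CPM in pDCs (-0.996 ± 0.15, edgeR adjusted p = 0.000793). Rac1, the broadly expressed Rac, was higher in cDCs (-0.58 ± 0.16, edgeR adjusted p = 0.0236), opposite to Rac2.

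Of 29 genes of receptor-proximal and integrin-activation signalling, 4 rose in pDCs, 2 rose in cDCs and 23 did not pass (median log2 fold 0.06). Blnk, an adaptor known from B cell receptor signalling that binds Vav, measured 141 and 126 CPM in cDCs, and 266 and 194 CPM in pDCs (0.79 ± 0.15, edgeR adjusted p = 0.00298). Pik3cd, a leukocyte phosphoinositide 3-kinase subunit, was also higher in pDCs (0.53 ± 0.13, edgeR adjusted p = 0.0115). Nck2, an adaptor that binds WASp family proteins, measured 87.7 and 86.0 CPM in cDCs, and 33.2 and 52.0 CPM in pDCs (-1.03 ± 0.20, edgeR adjusted p = 0.00365). Tln1, which encodes talin, the partner of kindlin in integrin activation, was higher in cDCs (-0.42 ± 0.14, edgeR adjusted p = 0.0494). Of 29 genes of the core actin machinery, 2 rose in pDCs, 1 rose in cDCs and 26 did not pass (median log2 fold -0.02). The 3 were Actb, beta-actin (0.75 ± 0.15, edgeR adjusted p = 0.00497), Ezr, ezrin (0.71 ± 0.23, edgeR adjusted p = 0.0452), and Wdr1, a cofactor of cofilin (-0.83 ± 0.18, edgeR adjusted p = 0.00649). Windows also counted for neighbouring genes made up 88.2% at Tln1, 82.6% at Ezr, 69.2% at Wipf2, 31.8% at Actb, 28.0% at Rac1, 27.8% at Pik3cd and 25.6% at Rac2.

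By Euclidean distance of log2 CPM over the 4 PU.1 libraries, the locus nearest to each member was Nfkbid for Vav1, Frmd4a for Vav2, 1700025G04Rik for Vav3, Ppard for Coro1a, Stum for Was, Hecw2 for Wipf1, Zfp710 for Lcp1 and Pkd2l1 for Fermt3. The nearest pair was Vav3 and 1700025G04Rik, at a distance of 0.0758, where the latter measured 508 and 502 CPM in cDCs, and 338 and 399 CPM in pDCs. Frmd4a was the farthest of these neighbours, at 0.162 from Vav2. With 15001 loci and 4 libraries such likeness is a description.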

How the data were processed

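PU.1 ChIP-seq was read from 49 bp single-end reads (per the series' design text) in 2 cDC, 2 pDC and 1 input library. The values are raw read counts per 10 bp window that the authors deposited without normalising them. Subread 1.4.4 and build mm10 are named in the submitters' processing notes. Aligner settings, read extension and the choice of windows are not stated in those sources. Each of the 329996 listed windows has at least 33 counts over the 5 libraries. Genes, starts and promoters came from RefSeq GRCm38.p6, whose coordinates are those of mm10, and all 8 members matched by symbol.

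Windows passing filterByExpr at a minimum count of 10 were kept (286435). Windows, and sums over every gene locus, were tested in edgeR 4.0.16 (under R 4.3.3 with limma 3.58.1) by its quasi-likelihood F-test. TMM factors came from the windows, the model held cell type alone, and p-values were adjusted by Benjamini-Hochberg over all windows, regions or loci, with calls at 0.05. Regions join windows at most 100 bp apart, split at 5000 bp, with p-values combined by the Simes method. The direction and fold of a region are those of its window with the smallest p, and the SE is that implied by the F statistic. Overlaps used GenomicRanges 1.54.1. Input comparisons used all 5 libraries and totals over windows, and the spread of the lone input was taken from the PU.1 libraries. Each site was tested against the rest of its locus with diffSpliceDGE of edgeR. The window, locus and site-against-locus fits were tested on simulated data, and the input comparison was not. Alternatives were other scalings, filters, flanks, joining distances, DESeq2 1.42.0 and leaving out each library.

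Named were all members, and in each locus the strongest site, every called site and, where none was called, the site with the smallest p. Some further sites, those at starts and those next in signal, were chosen after their values were seen. From each gene list the 2 loci with the smallest p in each direction were taken. Members and lists were chosen with earlier results of these data known. In windows that held 20 or more counts in a pair, the mean chi-square was 1.41 for the cDC replicates and 3.15 for the pDC replicates, where counting error gives about 1, so no library was a copy.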

Additional observations from a re-analysis of the deposited data

How the results depend on the processing

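The 3 called loci became 1 with library-size scaling and 0 with scaling by the repeat windows or against a minimum fold of 1.5, and ranged from 0 to 6 over the fits that left out 1 library. The 16 called sites became 10 with scaling by the repeat windows, 4 with DESeq2, 8 where windows had to average 30 counts and 8 against the minimum fold, and ranged from 6 to 30 with 1 library left out. The 73 called windows became 41, 20, 37 and 36 under the same 4 settings, and ranged from 23 to 131 with 1 library left out. With library-size scaling the split of windows was 22 to 64 (pDC to cDC) and that of sites 5 to 10, and with scaling by the repeat windows 6 to 35 and 2 to 8. Windows above the input fell to 22 in cDCs and 28 in pDCs with totals taken outside the repeat windows. The 8 sites that differed from the rest of their locus ranged from 2 to 21 with 1 library left out. Folds changed sign without a call with scaling by the repeat windows at the loci of Vav1 (-0.028), Vav2 (-0.16) and Coro1a (-0.057) and at Vav1 site 4 (-0.28), Wipf1 site 9 (-0.031) and Lcp1 site 11 (-0.16). That scaling lowers folds at large, with the median over loci going from 0.05 to -0.46 and over windows from 0.01 to -0.54, so these signs follow from it. Was changed sign without cDC replicate 1 (-0.33 to 0.11 over the fits that left out 1 library). Fermt3 did so without cDC replicate 1 and without pDC replicate 2 (-0.26 to 0.16), with the gene span alone (0.016), with 50 kb flanks (0.11) and with windows given to the nearest gene (0.016). The cause of the sign changes at Was and Fermt3 was not tested. Libraries with the same replicate number did not deviate together over windows (r = 0.02). A low r can also come from counting error, so it does not settle whether the numbers pair the libraries. The labels do not say. A fit with a replicate block gave 4 called loci, with Vav1 added (edgeR adjusted p = 0.0248), 17 sites and 80 windows, and 7 sites that differed from the rest of their locus. Where 1 library is left out, the lone library of a cell type is assumed to vary like the others.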
